A study of Mus musculus with 36 samples.

Results

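DNA single-strand breaks (SSBs) that both libraries of 1 tissue carried at the same nucleotide, and that no library of another tissue carried, were taken from SSB maps of 6 mouse tissues. A member was an autosomal nucleotide, defined by chromosome, position and strand, that was listed in both SSB libraries of a tissue and in none of the 10 other SSB libraries. In all, 3026 of 5387480 distinct autosomal SSB nucleotides met this rule, of which 361 were private to bone marrow, 527 to brain, 953 to heart, 749 to liver, 222 to PBMCs and 214 to sperm. The members were therefore chosen by presence in the very libraries described here, and their number, position and clustering are given as descriptions with no test. The AP libraries took no part in the choice.

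The libraries came from male C57BL/6J mice 24 months of age, and the labels name 2 animals for bone marrow, brain, heart, liver, PBMCs (peripheral blood mononuclear cells, taken on a Ficoll gradient) and sperm. The labels name no transgene and no treatment. Red cells had been lysed in the bone marrow, the sperm were motile cells of the epididymal tail, and the other organs were ground whole, so each of those holds a mixture of cell types. SSBs and apurinic/apyrimidinic (AP) sites were mapped in 2 libraries per tissue and lesion, 24 in all. The SSB libraries listed 220728 to 1021522 autosomal nucleotides (median 403637) and the AP libraries 452686 to 946961 (median 726610). RNA values were not analysed here, so the tissue labels were not checked against marker genes.

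An SSB is an interruption of 1 strand of the double helix. It arises when sugar or base damage is processed, when topoisomerases act, or as an intermediate of excision repair, and it is normally sealed by end processing, gap filling and ligation. An AP site is a sugar that has lost its base, through spontaneous loss or through a glycosylase, and AP endonuclease cuts the strand beside it, which turns the AP site into an SSB. A nucleotide listed in separate libraries was recorded as broken more than once.

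Bases around the members could be read where they fell in the promoter windows of RefSeq (GRCm38.p6, from 250 bases before to 50 after a listed start; a gene can have several windows, and their starts can lie inside the gene span). Examples are printed because they show the bases at which private breaks lay and place them at known genes; they were chosen after the values were seen. Each line gives the tissue, the gene whose promoter window holds the break, the interval and the strand on which the break was listed. The sequence runs 5′ to 3′ on that strand, and the capital marks the listed nucleotide.
Bone marrow, Slc39a13, chr2:91070387-91070415, minus strand: tgcgctgaccgcgcGggtcccccatggta
Bone marrow, Fdxr, chr11:115277005-115277033, plus strand: aagcctcgcctcccGcttgcttagaaaca
Bone marrow, Anapc5, chr5:122821383-122821411, minus strand: cctcccctacccccGctcactacaggttt
Brain, Drd3, chr16:43762227-43762255, plus strand: tcctctgtctgggcCatggcacctctgag
Brain, Rps6ka1, chr4:133873066-133873094, minus strand: gtcttgagcctggcCcagcccccacgcct
Heart, Dennd4c, chr4:86748562-86748590, minus strand: cactttccctccctCcgtccctctccctt
Liver, Dennd4c, chr4:86748518-86748546, minus strand: ggtagaaaggacgcGgggggtggggtccg
Heart, Hdac2, chr10:36974370-36974398, plus strand: tgtgcgcacctccgGactgtgtgtgacta
Heart, Grb2, chr11:115699508-115699536, plus strand: tttcaatctcagccCcaggcgactgacag
Liver, Cst3, chr2:148875678-148875706, minus strand: aggaagggagaggcGgggcagggatgggg
PBMC, Sp140, chr1:85600724-85600752, plus strand: agcttctctggttcTgacttactagggtg
Sperm, Trim30c, chr7:104400779-104400807, minus strand: atagactttgctccTctccatgattctgg

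Most private breaks in promoter windows followed a cytosine. Of the 77 members with 10 known bases on each side, 59 (76.6%, 95% exact binomial interval 65.6 to 85.5) had C as the base just 5′ of the listed nucleotide. C made up 26.8% of all bases in the windows. The share was 76.2% of 446 for nucleotides found in just 2 libraries of different tissues, and 55.0% of 54266 for nucleotides found in 1 library only. A stood at this position in 1 of 77 members (1.30%, 0.0329 to 7.02). Nucleotides of 1 library gave 4.45%, within this interval. The listed nucleotide itself was G in 44.2% of members (32.8 to 55.9) and C in 41.6% (30.4 to 53.4). Nucleotides of 1 library gave 35.1% and 38.9%, within these intervals. The listed nucleotide was A in 0 of 77 members, which allows a share of up to 3.90%. It was A in 5.69% of nucleotides of 1 library and in 2.02% of those of different tissues. A CG pair spanning the 2 positions was found in 36.4% of members (25.7 to 48.1), in 29.8% of the nucleotides of different tissues and in 14.9% of those of 1 library. Thus C before the listed nucleotide and the CG pair had higher shares among members than among breaks seen once. Their intervals overlapped those of breaks that recurred in different tissues. These intervals, like all those below, cover counting error only. Bases outside the promoter windows were not analysed here.

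How many nucleotides 2 libraries share depends on their depth, so each count was divided by the count that placing both libraries uniformly over the autosomes would give. This ratio, the sharing index, was computed for all 66 pairs of SSB libraries from nucleotides found in just those 2 libraries. The index was 16.99 in bone marrow (361 members where uniform placement gives 21.2), 16.5 in PBMCs (222 against 13.4) and 13.2 in liver (749 against 56.8). It was 10.8 in brain (527 against 48.9), 10.5 in heart (953 against 90.8) and 10.4 in sperm (214 against 20.6). Heart had the most members and the deepest pair of libraries, and its index was among the lower of the 6 tissues.

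Pairs of libraries from different tissues also shared far more nucleotides than uniform placement gives. Their index averaged 10.0 ± 1.29 (SD, n = 60 pairs; range 7.55 to 13.8), against 13.1 ± 3.05 (SD, n = 6 pairs) for pairs of the same tissue, a ratio of 1.31. These pairs share libraries and are not independent. Bone marrow and PBMCs were above all 60 pairs of different tissues. All 6 tissues were above the median of those pairs (10.03). Against the 20 pairs that joined 1 of its own libraries with a library of another tissue, the private index was above all 20 in bone marrow, liver, PBMCs and sperm, above 17 of 20 in heart and above 15 of 20 in brain. Brain and heart thus lay within the spread of the 20 pairs of their own libraries with other tissues. Liver (13.2) and sperm (10.4), like brain and heart, lay within the range of all 60 pairs of different tissues. The pairs that joined bone marrow with PBMCs had indices of 10.6 to 13.8, and the highest of them ranked 3 of 66, below the private indices of both tissues.

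**Figure D1:**
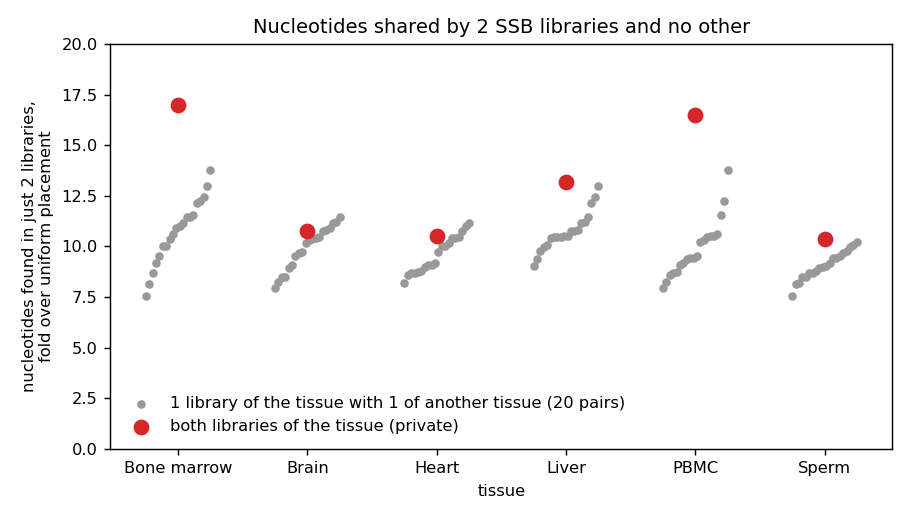
Sharing index (nucleotides found in just 2 SSB libraries, as a fold over uniform placement) by tissue. Red points are the pair of libraries of that tissue and grey points the 20 pairs joining 1 of its libraries with a library of another tissue; the red points of bone marrow (16.99) and PBMCs (16.5) stand clear of the grey points, while those of brain (10.8) and heart (10.5) lie among them.

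Put another way, 27303 nucleotides were found in just 2 SSB libraries, and 24277 of them joined different tissues. The 3026 of the same tissue were 11.1%, where the depths of the libraries alone give 9.42%. Private nucleotides made up 0.0779% (sperm) to 0.218% (heart) of the nucleotides in the smaller library of a tissue. Nucleotides just outside the rule were few. Both libraries of a tissue shared 3608 nucleotides in all, of which 232 were also in 1 other library, 107 in 2 others and 243 in 3 or more. Only 10 nucleotides were in all 12 libraries. Most members rested on the lowest possible count. A count above 1 in either library was found for 89 members (2.94%), with 0.949% of brain members, 1.34% of liver, 2.77% of bone marrow, 3.67% of heart, 6.54% of sperm and 6.76% of PBMC members, and no member had a count above 3. In single SSB libraries 0.141% to 1.23% of nucleotides had a count above 1. That share rests on 1 library per nucleotide, whereas a member could reach such a count in either of 2. The plus strand held 52.0% of members.

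Breaks of other tissues lay close to most private nucleotides. An SSB of another tissue lay within 1 bp on the same strand of 5.85% of members, within 10 bp on either strand of 18.9%, within 100 bp of 60.6% and within 1 kb of 97.7%. For nucleotides of 1 library the share within 1 bp was 1.03% (heart) to 1.25% (PBMCs), and in each tissue the private share was higher, from 4.05% in PBMCs to 6.93% in bone marrow. Within 10 bp the private share was 17.6% (heart) to 22.4% (bone marrow), against 9.36% to 11.3% for nucleotides of 1 library. For nucleotides found in 2 libraries of different tissues, SSBs of all 10 other libraries were counted. These include the second library of each of the 2 tissues, so the measure is not the same. It gave 5.31% within 1 bp and 19.1% within 10 bp. The opposite strand of the same base was broken in another tissue for 1.12% of members (34 of 3026). It was broken in another library for 1.06% of the nucleotides of different tissues. The word private hence holds for the exact nucleotide and strand, while the surrounding 1 kb was broken in other tissues for nearly all members.

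**Figure D2:**
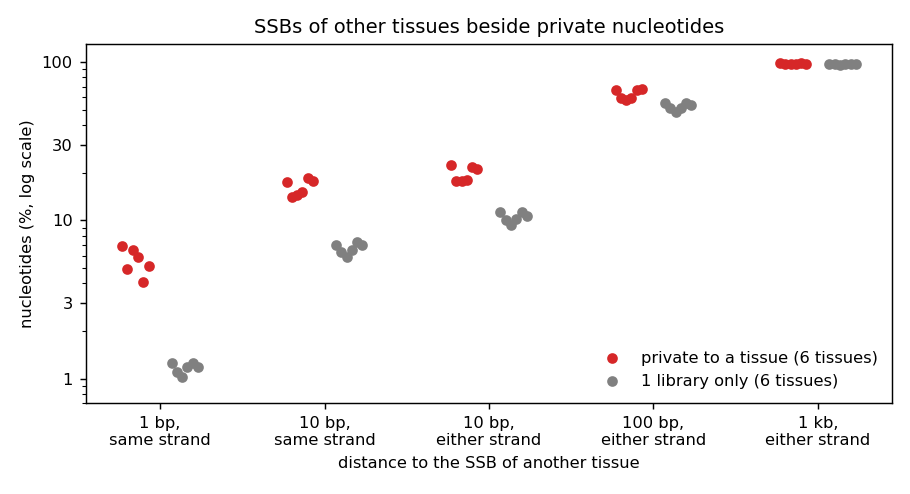
Share of nucleotides with an SSB of another tissue nearby (percent, log scale) by distance. Each point is a tissue, red for private nucleotides and grey for nucleotides of 1 library; within 1 bp the red points lie between 4.05% and 6.93% and the grey points between 1.03% and 1.25%, and at 1 kb the red points lie between 97.2% and 99.1%.

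Members lay in annotated gene spans, from the first to the last base of a gene with introns included, in 64.3% of cases (62.54 to 65.99). Gene spans cover 48.3% of the autosomes. The share was 62.9% for nucleotides of 2 different tissues and 61.5% for nucleotides of 1 library, so most of the difference from the covered length was already there in breaks seen once. Bone marrow (68.4%, 63.4 to 73.2) and brain (67.6%, 63.4 to 71.5) had the higher shares among members. Sperm had the lowest, 54.2% (47.3 to 61.0), which was also the lowest of all 66 pairs of libraries. Sperm breaks of 1 library lay in gene spans in 60.1% of cases. Of the members in a gene span on which only 1 strand carries an annotated gene, 54.5% were on the coding strand, against 53.7% for nucleotides of 1 library. In sperm this share was 68.7% of 83 (57.6 to 78.4), against 55.0%. Genes longer than 500 kb held 6.31% of members and 7.53% of the nucleotides of 1 library.

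The share of private breaks near gene starts was highest in bone marrow. Within 1 kb of an annotated gene start, taken as the 5′ end of the gene span, lay 43 of its 361 members, or 11.9% (8.76 to 15.7). The share was 7.52% (6.92 to 8.16) for the 7046 nucleotides found in 1 bone marrow library and 1 library of another tissue, and 5.55% for nucleotides of 1 bone marrow library only. This was the highest share of all 66 pairs of libraries, where pairs of different tissues ranged from 2.25% to 11.4%. Within 100 bp of a start the bone marrow share was 3.60%, again the highest of 66, against 1.59% and 1.001% in the same comparison sets. Heart members lay within 1 kb of a start in 7.66% of cases, liver members in 7.34% and brain members in 6.64%. Their intervals overlapped those of the nucleotides shared with other tissues (6.48%, 6.77% and 6.63%). The lowest shares were those of sperm (4.21%, 9 of 214) and PBMCs (2.70%, 6 of 222), although PBMCs and bone marrow both had a high sharing index. Their intervals (1.94 to 7.83 in sperm and 0.998 to 5.79 in PBMCs) covered the shares of nucleotides shared with other tissues (4.72% and 4.84%). Over all tissues the share was 7.30% (6.40 to 8.29), against 6.35% for 2 different tissues and 4.35% for 1 library. At the other end of genes members showed no such excess, with 3.47% (2.85 to 4.19) within 1 kb of a gene end, 3.88% for 2 different tissues and 3.23% for 1 library.

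**Figure D3:**
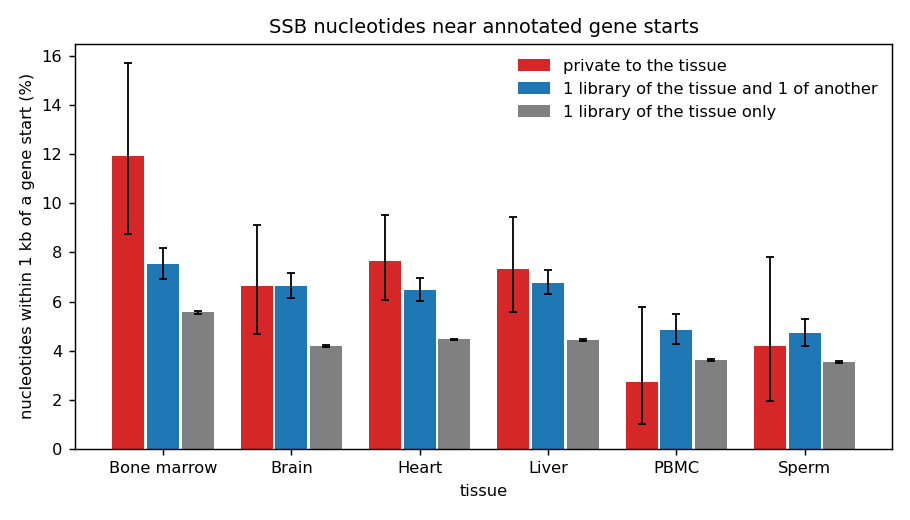
Share of SSB nucleotides within 1 kb of an annotated gene start (percent) by tissue, with 95% exact binomial intervals that cover counting error only. Red bars are private nucleotides, blue bars nucleotides of 1 library of the tissue and 1 of another, and grey bars nucleotides of 1 library. Bone marrow reaches 11.9%, 7.52% and 5.55%, whereas in PBMCs the private share (2.70%) is below the other bars. The interval of that PBMC share (0.998 to 5.79) covers the blue bar (4.84%).

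The promoter windows themselves held 81 members, with 20 in bone marrow, 9 in brain, 32 in heart, 17 in liver, 2 in PBMCs and 1 in sperm. In bone marrow this was 5.54% of members (3.42 to 8.43) against 1.63% of the nucleotides of 1 library. It was 3.36% (2.31 to 4.71) against 1.11% in heart and 2.27% (1.33 to 3.61) against 1.11% in liver. In brain it was 1.71% (0.784 to 3.22) against 1.001%, in PBMCs 0.901% (0.109 to 3.22) against 0.778% and in sperm 0.467% (0.0118 to 2.58) against 0.736%. The intervals of brain, PBMCs and sperm thus covered the shares of 1 library. Over all tissues it was 2.68% (2.13 to 3.32), against 1.92% for 2 different tissues and 1.08% for 1 library. The bone marrow genes included Slc39a13, a zinc transporter, Fdxr, the reductase that feeds electrons to mitochondrial ferredoxin, and Anapc5, a subunit of the anaphase-promoting complex. Heart members lay in the windows of Hdac2, a histone deacetylase, Grb2, an adaptor of receptor tyrosine kinases, and Mcm7, a subunit of the replicative helicase. In brain the windows included those of Drd3, a dopamine receptor, and Rps6ka1, a ribosomal S6 kinase. Other brain members lay in windows of R3hdm1 with Zranb3, Slc50a1, Gm6408, Lsm8, Pym1 and Olfr325. The genes named in this paragraph were picked after the values were seen, and a match of genes to tissue was not tested. In liver they included Cst3, which encodes the protease inhibitor cystatin C, and Hsd17b12, an enzyme of fatty acid elongation. Dennd4c, an exchange factor for Rab GTPases, was the gene whose window held a heart and a liver member.

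A few loci held most of the crowding. The 10 kb window chr17:39840001-39850000, which holds the 18S ribosomal RNA sequence Rn18s-rs5 and part of the long non-coding RNA gene AY036118, held 69 members, 17 in bone marrow, 14 in brain, 16 in heart, 18 in liver, 2 in PBMCs and 2 in sperm. The same window held 476 nucleotides of 2 different tissues and 107 to 641 SSB nucleotides in each library. Sfi1 on chromosome 11 (chr11:3131850-3203347), which encodes a centrin-binding protein of the centrosome, held 49 members and was the sole gene with members in all 6 tissues, 9 in bone marrow, 9 in brain, 14 in heart, 9 in liver, 6 in PBMCs and 2 in sperm. It held 531 nucleotides of 2 different tissues as well. The neighbouring pseudogene Pisd-ps1 held 9 members. In heart a second window, chr15:75080001-75090000, with no annotated gene, held 6 members of its own and 10 over all tissues. Ribosomal RNA genes and Sfi1 have near-identical copies in the mouse genome, and how reads with several matches were placed was not given in the sources used here, so the assignment of these breaks is uncertain. Without the ribosomal window, Sfi1 and Pisd-ps1, 2899 members were left, and the private index was 15.8 in bone marrow, 15.9 in PBMCs, 12.7 in liver and 10.2 to 10.3 in the other 3 tissues.

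Outside such loci members were scattered. Of 361 members in bone marrow, 332 were alone in their 10 kb window, as were 502 of 527 in brain, 896 of 953 in heart, 714 of 749 in liver, 213 of 222 in PBMCs and 212 of 214 in sperm. The median distance between neighbours ran from 1417280 bp in heart to 7025990 bp in sperm. Another member of the same tissue within 1 kb was found for 112 of 3026 (3.70%), against 3.40% for pairs of different tissues. Pairs of members within 1 kb were 316 times as many as uniform placement gives, and 295 times for different tissues. Without the ribosomal window, Sfi1 and Pisd-ps1 these values fell to 33.9 (25 pairs) and 22.0, so those loci supplied 228 of the 253 close pairs. By chromosome, members were most in excess on chromosome 17, with 6.54% of members against 4.07% of the nucleotides of 1 library. Chromosome 11 followed, with 7.47% against 6.06%. These shares include the dense loci. The ribosomal window held 69 of the 198 members on chromosome 17, and Sfi1 and Pisd-ps1 held 49 and 9 of the 226 on chromosome 11. Chromosome shares without these loci were not computed.

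Of 47042 autosomal genes, 1782 held at least 1 member and 187 at least 2. Members of a single tissue were found in 1624 of the 1782, of 2 tissues in 135, of 3 in 18, of 4 in 4 and of all 6 in 1. No background of the same size was computed for these counts. The 4 genes with 4 tissues were Pisd-ps1, the related pseudogene Pisd-ps2 (5 members), Sp140 (4 members), which encodes a chromatin reader of leukocytes, and Zfhx3 (4 members), which encodes a large homeodomain transcription factor and spans 682 kb. These genes also held nucleotides of 2 different tissues, 61 in Pisd-ps1, 28 in Pisd-ps2, 37 in Sp140 and 12 in Zfhx3. Sp140 spans 57.6 kb and held 978 SSB nucleotides over the 12 libraries, against 2687 in Zfhx3. After Sfi1, the genes with the most members in bone marrow were Pisd-ps1 and AY036118 with 2 each. In brain they were Mroh2a and Tox2, an HMG-box transcription factor, with 2 each and with 17 and 1 nucleotides of 2 different tissues. In heart they were Pisd-ps1 and Actn4, an actin-crosslinking protein, with 3 each (Adamtsl1 and Tmem267, which have fewer members per kb, also had 3), and in liver Pisd-ps1 with 3 and the read-through gene Eef1akmt4-ece2 with 2. PBMCs had 2 members each in Adssl1, the muscle-type adenylosuccinate synthetase, and Srrm4, a splicing regulator of neurons. Sperm had 2 each in Lrrfip2 and Pde10a, a cyclic nucleotide phosphodiesterase. Genes with at least 2 members numbered 3 in bone marrow, 8 in brain, 25 in heart, 19 in liver, 4 in PBMCs and 3 in sperm. Where genes were tied, those named had the most members per kb.

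Lists of genes known for their work in a tissue met private breaks of that tissue in counts of 0 to 2. Of 18 heart genes, such as those of the sarcomere, 1 held a heart member, Cacna1c, the L-type calcium channel, with 1 of 953 members (0.105%) where the list held 0.124% of heart SSB nucleotides. The 18 liver genes, among them albumin and the fibrinogens, held 0 of 749 liver members, which allows a share of up to 0.401%, where the list held 0.0308% of liver SSB nucleotides. The 17 sperm genes found held 0 of 214 sperm members, which allows up to 1.40%, where the list held 0.0942% of sperm SSB nucleotides. Of 18 blood genes, Bach2 and Ebf1, transcription factors of B cells, held 1 bone marrow member each, and Ebf1 held 1 PBMC member. That is 0.554% of bone marrow members (2 of 361) against 0.155% of bone marrow SSB nucleotides, and 0.450% of PBMC members (1 of 222) against 0.149%. The blood list held 11 members over all tissues (0.364% of members, against 0.152% of the nucleotides of 2 different tissues and 0.145% of SSB nucleotides), with 2 in brain, 3 in heart and 3 in liver. The 13 very long genes named for fragile sites held 14 members in 10 genes, 0.463% of members against 0.732% of SSB nucleotides. At these counts a preference for the genes of a tissue was not detectable.

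Whether private SSBs coincided with AP sites of their own tissue was the comparison that the rule left free, and it was tested over the AP libraries. A hit was the same nucleotide on the same strand in an AP library. Bone marrow members were hit 2 times in each bone marrow AP library, and 0 to 3 times (median 1) in the 10 AP libraries of other tissues. Brain members were hit 2 and 0 times in brain, against 0 to 5 (median 1) elsewhere. Heart members were hit 3 and 5 times in heart, against 1 to 6 (median 4). Liver members were hit 3 and 1 times in liver, against 1 to 8 (median 4). PBMC members were hit 1 and 0 times in PBMCs, against 0 to 2 (median 0.5), and sperm members 0 and 1 times in sperm, against 0 to 1 (median 0). In every tissue the counts in its own AP libraries overlapped those in the others.

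Summed over tissues, the own AP libraries gave 20 hits at 19 members, where their depth gives 19.6 hits, a ratio of 1.02. An exact permutation test over all 7484400 assignments of the 12 AP libraries to tissues gave p = 0.885 (two-sided). Tissue by tissue, the exact permutation p-values over 66 splits of 2 against 10 libraries ran from 0.121 in bone marrow to 0.879 in brain, and from 0.727 to 0.879 after Benjamini-Hochberg adjustment over the 6 tissues. The smallest p that 66 splits allow is 0.0303, so with adjustment a single tissue could not have passed 0.05. The ratio was 1.05 (p = 0.610) within 1 bp on the same strand and 1.02 (p = 0.373) within 1 kb on either strand, both by the exact permutation test. An excess in the own tissue was not detectable with this number of hits, and without the ribosomal window, Sfi1 and Pisd-ps1 the ratio was 1.23 (13 hits, p = 0.408, exact permutation test).

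**Figure D4:**
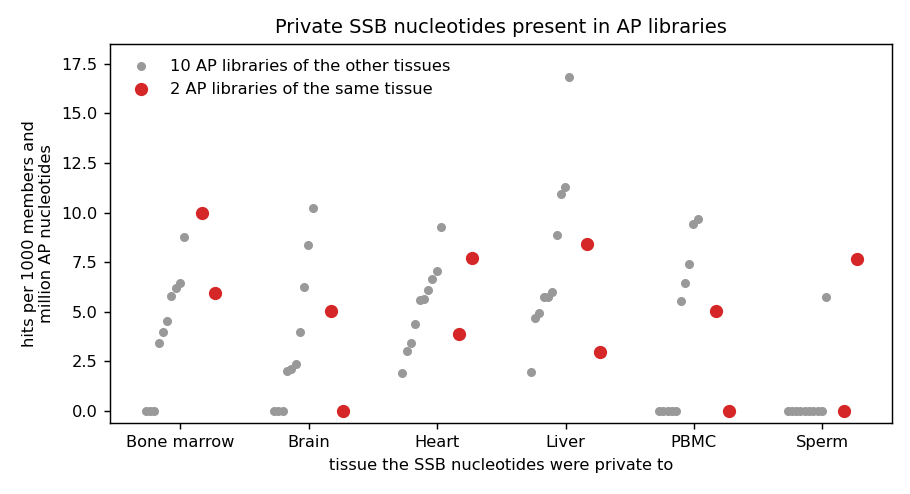
Hits of private SSB nucleotides in AP libraries, per 1000 members and 1000000 autosomal AP nucleotides, by the tissue of the SSBs. Red points are the 2 AP libraries of that tissue and grey points the 10 of the others; the red points span 0 to 9.99 and the grey points 0 to 16.8, with overlap in each tissue.

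Members did recur among AP sites at large. Some AP library held 94 members (3.11%, 2.52 to 3.79), against 3.12% of the nucleotides of 2 different tissues and 0.906% of those of 1 library. These shares include the ribosomal window, Sfi1 and Pisd-ps1, which held 4.20% of members and 0.204% of SSB nucleotides. The shares without these loci were not computed. The 19 members held by an AP library of their own tissue lay in Sh3gl2 in brain, which encodes the synaptic vesicle protein endophilin, in Rab23, a small GTPase, and Zfp385b in heart, in Sfi1 in liver and in AY036118 in bone marrow, and the other 14 in no annotated gene. All 4 in bone marrow were within chr17:39840001-39850000, as were the heart members at positions 39843533 and 39844329. Heart, liver and PBMC members at positions 75086455, 75086766 and 75086692 of chromosome 15 lay in chr15:75080001-75090000. That window held 63 nucleotides of 2 different tissues, and it was not left out with the ribosomal window, Sfi1 and Pisd-ps1. One heart member, at position 21597312 of chromosome 19, was held by both heart AP libraries and by 3 AP libraries of other tissues.

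AP nucleotides were most frequent just beside the members rather than on them. Summed over the 12 AP libraries, 131 AP nucleotides fell on a member, 227 fell 1 bp to its 3′ side on the same strand and 138 fell 2 bp to that side. The 20 offsets other than 0 within 10 bp had a median of 76 and a lowest value of 61. Of the 227, 38 were in AP libraries of the same tissue, 1.10 times what depth gives (p = 0.432, exact permutation test; this offset was chosen after the values were seen). The test did not detect an excess in the libraries of the same tissue at this offset. The counts by offset were made for members only, with the ribosomal window, Sfi1 and Pisd-ps1 included. Whether other SSBs have the same profile was not tested.

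**Figure D5:**
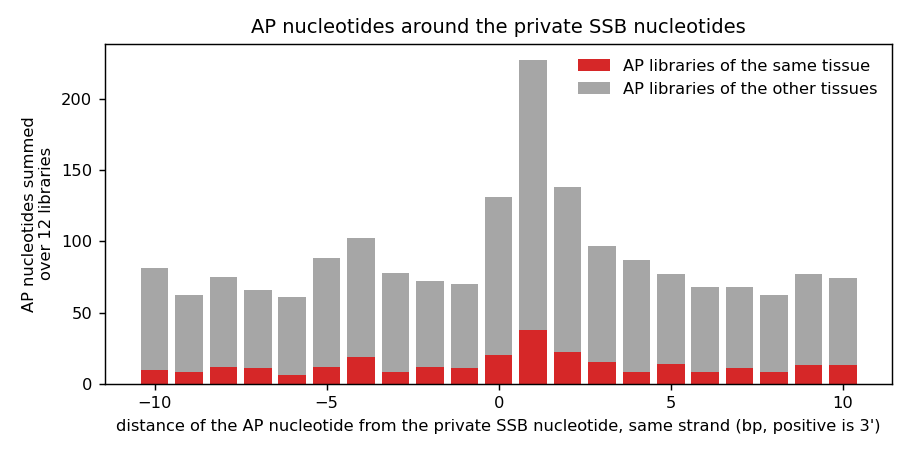
AP nucleotides on the same strand, summed over 12 AP libraries, by distance in bp from the 3026 private SSB nucleotides (positive is 3′). Red is AP libraries of the same tissue and grey those of the other tissues; the bar at 1 bp reaches 227, above 131 at 0 and the median of 76 over the other offsets.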

How the data were processed

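SSBs and AP sites had been mapped with SSiNGLe and its AP-site version in 2 libraries per tissue and lesion. The authors deposited, for each of the 24 libraries, a list of single nucleotides with strand and a raw count per nucleotide, nearly always 1. Builds per the labels were mm10 and GRCm38; the submitters' processing notes also name RSEM 1.2.28. The aligner, duplicate removal and filters were not given in the sources used here, and all of them can set which bases recur. No column of another sample was met. Each listed nucleotide was counted once whatever its count, positions were taken as 1-based, and the 19 autosomes were kept. Which side of the break the listed nucleotide is on, and whose strand is listed, were read as deposited. The members and gene lists were chosen with earlier results of these data known.

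Gene spans, starts and ends came from RefSeq (GRCm38.p6; 47042 autosomal genes, 25748 of them with a strand, which start, end and strand shares used; starts and ends were those of the gene span). Uniform placement took both strands up to the last position listed on each autosome. Shares have 95% Clopper-Pearson intervals, and a share of 0 was given the limit of 3 counts. Genes were named by rule: per tissue the 3 with most members (at least 2), genes of tissue lists with a member of that tissue, the 2 fullest 10 kb windows (those with 1 member were left out), genes at members found in an AP library of the same tissue, and the 5 genes with members of most tissues; promoter genes were chosen after their values were seen. The result of the brain gene list in brain is not reported here. The AP test permuted AP libraries over tissues exactly, with expected hits in proportion to depth. The labels number the libraries of each tissue 1 and 2, from 2 mice; pairs of different tissues with the same number had an index of 9.93 ± 1.16 (SD, n = 30 pairs) and with different numbers 10.07 ± 1.42 (SD, n = 30 pairs). Whether the libraries of a number share an animal was not stated for each tissue. Code was tested on simulated data (scipy 1.17.1 and pandas 2.3.3 under Python 3.11.15). Alternatives covered strand, sex chromosomes, exclusion, depth, runs, distances, single libraries and dense loci.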

Additional observations from a re-analysis of the deposited data

Results flagged for a closer look

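The comparisons used autosomes, and private nucleotides also occurred on the chromosomes left out. On X and Y together there were 6 in bone marrow, 4 in brain, 11 in heart, 6 in liver and 6 in PBMCs, and 0 in sperm. Counts above 3 were flagged, and this cut-off is not a background. The share of all SSB nucleotides on X and Y was not set beside these counts, so they show neither an excess nor a lack. They came to 33 beside the 3026 autosomal members.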

How the results depend on the processing

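The ratio of the sharing index of same-tissue pairs to that of pairs of different tissues (1.31) was compared over 22 alternatives. It stayed between 1.22 and 1.35 under all of them, including those that left out each SSB library in turn. The SD of this ratio over tissues was 0.305. No alternative left out bone marrow and PBMCs together, which had the highest indices. With the replicate block (different-tissue pairs of different numbers only) it was 1.30, and the paired AP test, permuting within numbers, gave 1.02 (p = 0.895, exact permutation). Thinning each library to 220728 nucleotides left 805 members of 3026, with a ratio of 1.26. The AP ratio ran from 0.890 to 1.12 when single AP libraries were left out (below 1 without replicate 1 of bone marrow or brain or replicate 2 of heart or sperm), was 0.974 without bone marrow, and had exact permutation p-values of 0.373 to 0.989 under all alternatives. With protein-coding genes only, 55.6% of members were in gene spans, 5.78% within 1 kb of a start and 2.31% of an end. Within 100 bp the start and end shares were 1.69% and 0.264%, and within 5 kb 17.5% and 17.1%. The crowding of members was 485 times uniform placement within 100 bp, 79.8 within 10 kb, 362 on the same strand, 48.3 without the fullest window of each tissue and 33.9 without the dense loci (chosen after seeing the data). Low counts limit the comparisons, with 20 AP hits in all and 1 to 32 promoter members per tissue.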
